A study of Mus musculus with 9 samples.

Results

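The oxidative phosphorylation subunits are the proteins of the 5 enzyme complexes of the inner mitochondrial membrane, and this report describes their messenger RNAs in mouse left ventricle. Members were the protein-coding genes whose symbols fit the naming patterns of the subunit families (Nduf a, b, c, s and v; Sdh; Uqcr; Cox 4 to 8; Atp5; mt-), a choice made by name and not by measured values. They numbered 97 of 49671 gene identifiers, with 84 in the nucleus and 13 on the mitochondrial chromosome. Complexes were also assigned by symbol alone, so members such as Ndufa4, Ndufa4l2 and Cox7a2l stand where their names put them, whatever the place of their proteins. On this basis the nuclear genes were 37 of complex I, 4 of complex II, 8 of complex III, 18 of complex IV and 17 of complex V, and the mitochondrial genes were 7, 0, 1, 3 and 2 of the same complexes. Of these, 82 nuclear and all 13 mitochondrial genes passed the filter on low counts. Cox7b2 and Cox8c did not, with at most 0.19 CPM (counts scaled to the size of the library) for Cox7b2 and no read in any library for Cox8c.

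The libraries formed 4 groups, from wild-type (WT) mice given vehicle (2 libraries), WT mice given ifetroban (2), mice with a knockout (KO) of dSG given vehicle (2) and KO mice given ifetroban (3). The usual full name of dSG is delta-sarcoglycan, encoded by Sgcd, a protein of the complex that ties the muscle cell membrane to the matrix, and ifetroban blocks the thromboxane receptor. The labels give no strain, age, sex, dose or duration, and they do not state whether each library is its own animal. The p-values therefore rest on the spread among these libraries, which could be technical. Polyadenylated RNA was sequenced and 21299748 to 31394548 reads per library were counted in genes.

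Electrons from NADH enter the chain at complex I and those from succinate at complex II. They pass through complex III and cytochrome c to oxygen at complex IV, and complex V makes ATP from the proton gradient that complexes I, III and IV build. The heart depends on this pathway for most of its ATP, and ventricular muscle is among the tissues richest in its transcripts. Complex II is the only one of the 5 encoded wholly in the nucleus.

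Sgcd, the gene that the labels call knocked out, was at 28.9, 33.1 and 31.2 CPM in 3 of the 4 WT libraries and at 7.49, 12.1, 9.77, 16.4 and 18.5 CPM in the 5 KO libraries, but at 11.1 CPM in the library labelled WT vehicle 1, inside the KO range. Which part of the gene the knockout removes is not given in the sources used here. That library's summed fibroblast markers (859 CPM) and atrial markers (231 CPM) lay below every KO library (lowest 1200 and 365 CPM). The atrial sum was nearly all 1 gene, Nppa, at 230 CPM in that library and 363 CPM in KO ifetroban 3. Of the 5 atrial markers, 2 passed the filter on low counts. Summed skeletal muscle markers of the library labelled WT vehicle 1 were 3976 CPM, with 3490 and 3666 in KO vehicle and 2275 to 2487 in the other WT libraries. That sum was mostly Ckm (2592 CPM) and Acta1 (26510 reads), and Myh1, Myh2 and Myh4 had 0 reads in this library. The most reads of Myh1 (247), Myh4 (102) and Tnnt3 (158) were in KO ifetroban 3. Erythroid markers of the library labelled WT vehicle 1 (476 CPM, with 43.0 to 135 in the other WT libraries) also lay away from the other WT libraries. Libraries also differed in how levels went with transcript length: in 4 libraries (those labelled WT vehicle 1, KO vehicle 1 and 2, and KO ifetroban 1) long transcripts were low, with a Spearman coefficient between deviation and exonic length of -0.28 to -0.40 over genes, and in the other 5 they were high, at 0.32 to 0.38. These are the 2 kinds of library referred to below. The library labelled WT vehicle 1 was thus the only WT library with long transcripts low, and the part of the length trend in its Sgcd level was not tested. The summed markers of cardiomyocytes (10 genes, all detected) were 68800 to 73884 CPM in WT and 53332 to 66162 CPM in KO libraries, without overlap. Each single one of these markers overlapped between genotypes, Tnnt2 for example at 5608 to 7422 CPM in WT and 5845 to 7140 CPM in KO libraries. The summed macrophage markers (7 genes) were 161 to 207 CPM in WT and 272 to 341 CPM in KO libraries. In bulk RNA, fewer cells of a type and less RNA per cell cannot be told apart, and the part of the cell mixture in the results below was not tested.

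As a share of all counts in genes, the 13 mitochondrial messenger RNAs made up 15.1% to 21.1% of a library and the nuclear members 3.80% to 4.99%. Both shares were highest in the library labelled WT vehicle 1 and lowest in KO ifetroban 3.

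Levels between genes are given per kilobase of annotated exons (CPM per kb, mean over the 9 libraries), a length that counts all annotated isoforms and so understates genes with long minor isoforms. In complex I, Ndufb9, an accessory subunit, had the highest nuclear level (541 CPM per kb) and Ndufb2 the lowest (3.32 CPM per kb). Sdha, the flavoprotein that oxidizes succinate, led complex II at 354 CPM per kb, and Sdhc, a membrane anchor, was lowest at 141 CPM per kb. Complex III levels ran from 257 CPM per kb for Uqcrq, a small subunit, to 570 CPM per kb for Uqcrfs1, the Rieske iron-sulfur protein. Complex IV was the widest, from 0.667 CPM per kb for Cox6b2, an isoform known from testis, to 1529 CPM per kb for Cox6a2, the heart and muscle isoform of subunit VIa. In complex V, Atp5a1, the nucleotide-binding alpha subunit, stood at 1388 CPM per kb and Atp5s, a coupling factor, at 8.11 CPM per kb. mt-Co1, the catalytic core of complex IV, had 47153 counted CPM per kb, the most among the 7 mitochondrial genes with high counts and above each nuclear member, though 51.1% of its 50-base stretches also occur in other annotated genes. Among nuclear members, 10 share at least 30% of their 50-base stretches with another annotated gene, Atp5l (84.8%), Atp5o (50.3%) and Atp5h (47.9%) the most of them, so their levels are uncertain.

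The knockout comparison under vehicle asks what loss of dSG does to these transcripts, and no member passed the test. With edgeR's quasi-likelihood test and Benjamini-Hochberg adjustment over 15261 genes, 0 of 95 members had an adjusted p under 0.05, where the share called among all genes was 0.0524%. At an unadjusted p under 0.05 there was 1 member, Sdha, against 12.5% of all genes. The median log2 fold change, KO minus WT, was -0.04 over the 82 nuclear members and -0.07 over the 13 mitochondrial ones, and -0.01 over all tested genes. By complex, the nuclear medians were -0.04 (complex I, 25 of 37 negative), -0.16 (complex II, 4 of 4 negative), -0.05 (complex III, 6 of 8), -0.02 (complex IV, 10 of 16) and -0.03 (complex V, 13 of 17). Of 19 nuclear subunits listed as catalytic and core, a list that also holds Cox4i1, Cox5a, Cox5b and Atp5o, 17 were negative, with a median of -0.10.

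The nuclear median rested on the WT vehicle libraries. Without the library labelled WT vehicle 1 it was 0.29, and without WT vehicle 2 it was -0.32, so the sign turned without the first of them and the size moved without either. The mitochondrial median moved in the same way, to 0.19 and -0.30.

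**Figure D1:**
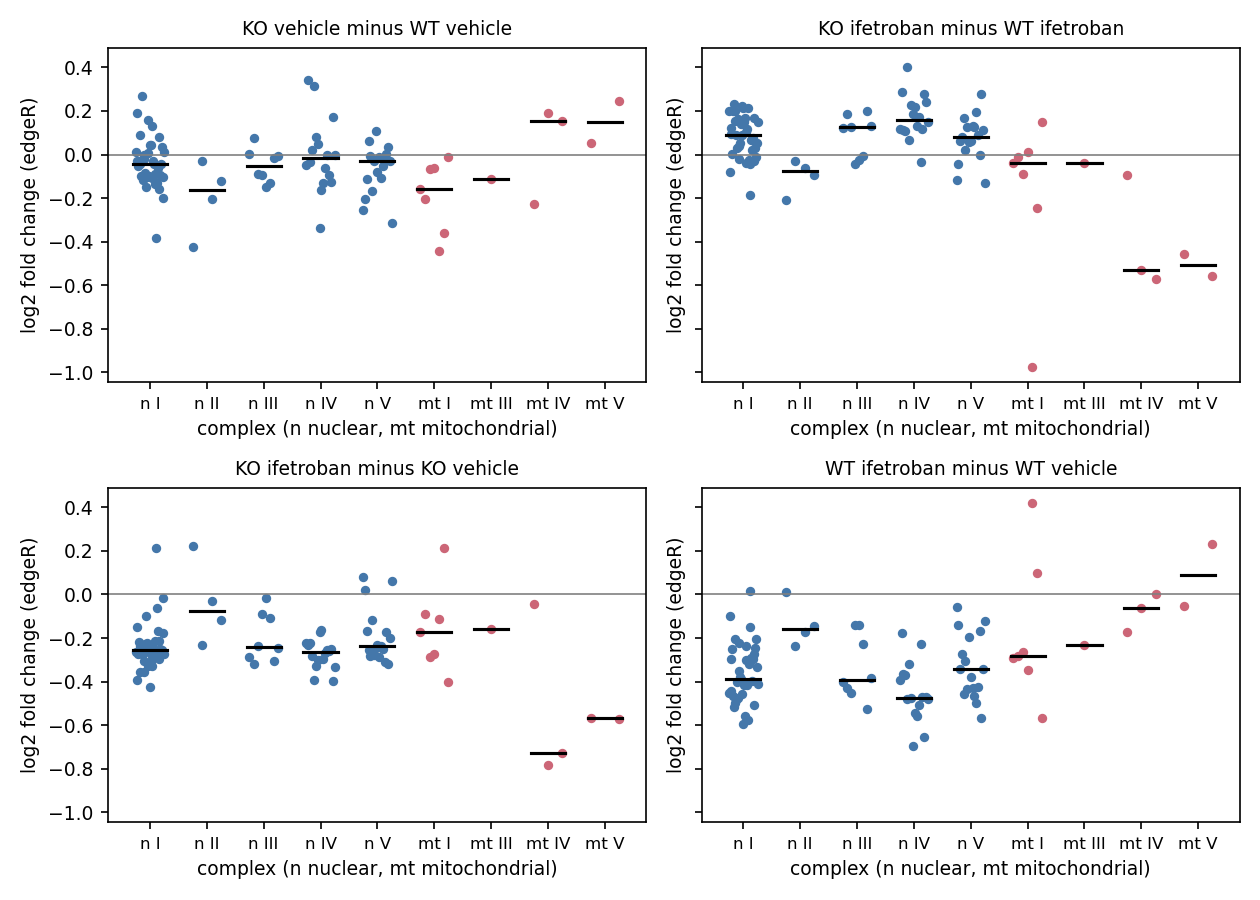
Log2 fold changes (y axis) of each tested member in the 4 comparisons of 2 groups, by complex and genome (x axis; n nuclear, mt mitochondrial), with a black bar at each median. Nuclear members lie near 0 in both knockout comparisons and mostly below 0 in both ifetroban comparisons. The lowest value is that of a mitochondrial gene in each panel except ifetroban minus vehicle within WT, where it is that of a nuclear gene of complex IV.

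Sdha had the smallest p of the members. Its levels were 1550 and 1677 CPM in WT vehicle, 1593 and 1655 CPM in WT ifetroban, 1101 and 1304 CPM in KO vehicle, and 1372, 1509 and 1333 CPM in KO ifetroban. Each of the 5 KO libraries was lower than each of the 4 WT libraries, the one labelled WT vehicle 1 included. The log2 fold change was -0.42 ± 0.16 (SE) under vehicle, with an adjusted p of 0.348 by edgeR. Averaged over both treatments it was -0.32 ± 0.11, with an adjusted p of 0.207, which misses the threshold.

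Ndufs1, the largest iron-sulfur subunit of complex I, showed the same order of libraries. It was at 727, 757, 750 and 752 CPM in the WT libraries and at 491, 648, 654, 699 and 630 CPM in the KO libraries, again without overlap. KO vehicle 1 was the lowest library for both Sdha and Ndufs1. Its summed hepatocyte markers were 78.0 CPM, against at most 6.45 CPM in any other library, and the part of this in both genes was not tested. The averaged log2 fold change of Ndufs1 was -0.28 ± 0.12, with an adjusted p of 0.275 by edgeR. Sdha and Ndufs1 were the only nuclear members (2 of 82, 2.44%) with all KO below all WT libraries, where 2.28% of all tested genes had that order, so the count is near the background. No nuclear member had the opposite order, which 5.03% of all tested genes had. The cardiomyocyte marker sum given above, though not its single markers, separates the same libraries in the same direction.

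Both genes are long for this family. The median exonic length was 1560 bases over the nuclear members tested and 4183 bases over all tested genes, while the annotated exons of Sdha (chromosome 13, 74322254 to 74350280, minus strand, GRCm38) cover 4126 bases and those of Ndufs1 (chromosome 1, 63143596 to 63176833, minus strand) 8086 bases.

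**Figure D2:**
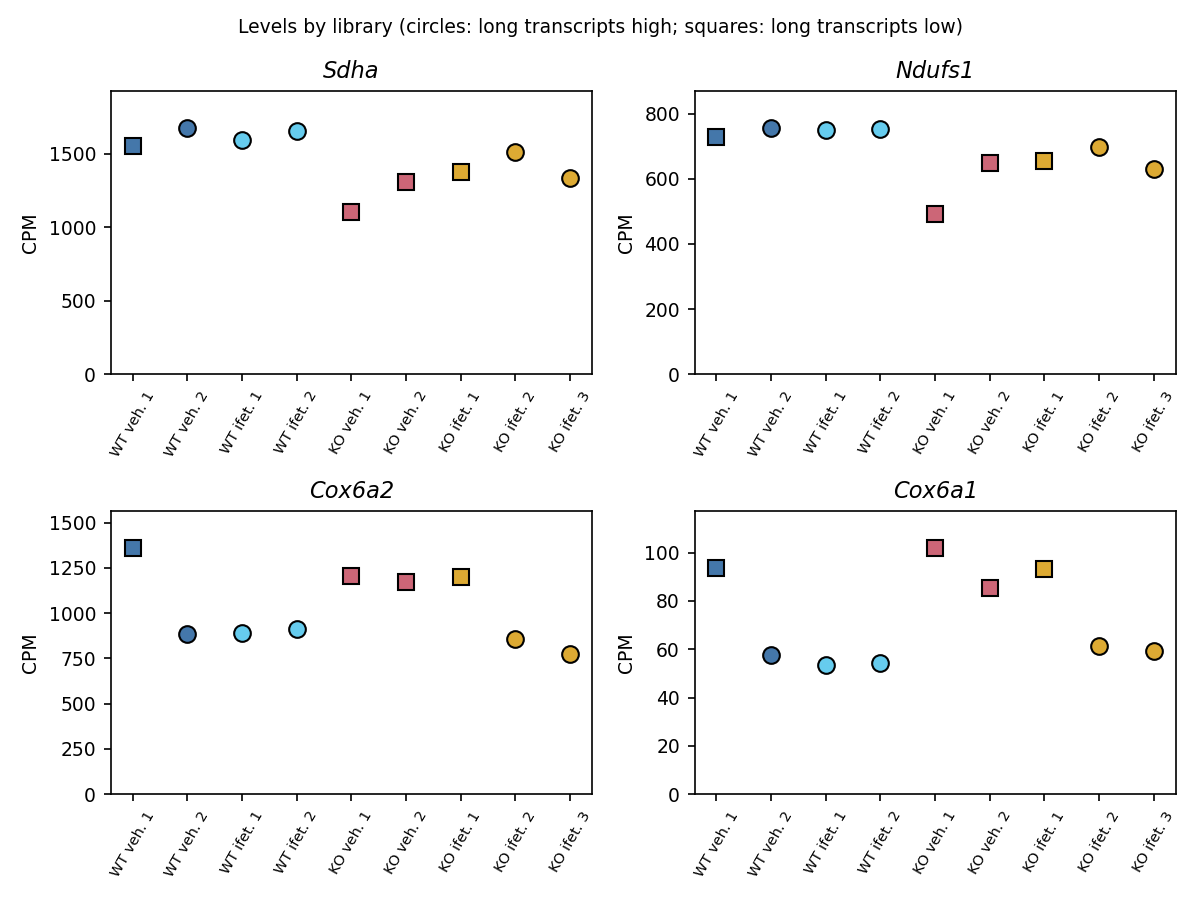
Level in CPM (y axis, from 0) of Sdha, Ndufs1, Cox6a2 and Cox6a1 in each of the 9 libraries (x axis), coloured by group, with squares for the 4 libraries in which long transcripts were low. Sdha and Ndufs1 separate by genotype, whereas Cox6a2 and Cox6a1 are high in every square.

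On the higher side of the vehicle comparison, the 3 smallest p-values among members belonged to isoforms of low level. Cox4i2, the subunit IV isoform known from lung and pericytes, was at 0.34 ± 0.26 (log2, SE). Ndufa4l2, a relative of Ndufa4 known as hypoxia-induced, was at 0.27 ± 0.24, and Cox6a1 at 0.31 ± 0.28, with edgeR adjusted p-values of 0.582 to 0.640. On the lower side mt-Nd5, at -0.36 ± 0.20, came after Sdha and Ndufs1. Both KO libraries were below both WT libraries for 8 of 82 nuclear members (9.76%, and 18.2% of all tested genes) and above them for 1 (1.22%, and 16.8%).

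Under ifetroban, KO minus WT gave 0 of 95 members called, beside 0.0131% of all genes. The nuclear median was 0.11, with 62 of 82 members positive, and complex II alone had no positive member (median -0.08, 4 of 4 negative). This median turned to -0.10 without KO ifetroban 1, the only library of these 2 groups with long transcripts low, to -0.11 with a term for the kind of library and to -0.03 with length offsets. Cox6a1 (0.40 ± 0.26), Cox4i2 (0.29 ± 0.24) and Cox8a (0.24 ± 0.25), the last the ubiquitous isoform of subunit VIII, had the smallest p on the higher side. On the lower side they were mt-Nd4l (-0.98 ± 0.37), mt-Co3 (-0.57 ± 0.23) and mt-Co2 (-0.53 ± 0.25), all with edgeR adjusted p of at least 0.948. The 2 members at an unadjusted p under 0.05 were mt-Nd4l and mt-Co3, against 4.7% of all genes. The groups did not overlap for 2 nuclear members with KO lower (2.44%, and 12.9% of all tested genes) and for 1 with KO higher (1.22%, and 16.1%).

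Over both treatments together, the genotype effect called 0 of 95 members, where 0.537% of all genes were called. At an unadjusted p under 0.05 there were 4 members, beside 16.5% of all genes, namely Sdha, mt-Nd4l, Ndufs1 and mt-Nd5, all lower in KO. The nuclear median was 0.03, with 50 of 82 members positive and 32 negative. Among the same 19 listed subunits, which include the electron-carrying subunits of complex I and the alpha, beta and gamma subunits of ATP synthase, 13 were negative and 6 positive, with a median of -0.04.

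The ifetroban comparison within KO asks what the drug did in the diseased ventricle. No member was called of 95, and neither was any of the 15261 genes (0%). At an unadjusted p under 0.05 there were 2 members, mt-Co2 and mt-Co3, beside 5.02% of all genes. Nuclear members had a median log2 fold change of -0.25, with 77 of 82 negative, and the complexes were alike (complex I -0.26, III -0.24, IV -0.26, V -0.23), apart from complex II at -0.07. Both KO vehicle libraries had long transcripts low, as did 1 of the 3 KO ifetroban libraries. With a term for the kind of library the nuclear median turned to 0.11, and with offsets for the length trend it was -0.06. The 5 positive members included Sdha (0.22 ± 0.15) and Ndufs1 (0.21 ± 0.16), and with mt-Nd5 (0.21 ± 0.18) they had the smallest p on the higher side, at edgeR adjusted p of 0.688 to 0.709. All 3 KO ifetroban libraries were below both KO vehicle libraries for 4 nuclear members (4.88%, and 7.58% of all tested genes) and above them for 1 (1.22%, and 8.38%).

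Within WT, ifetroban minus vehicle gave a nuclear median of -0.39, with 80 of 82 members negative, and again 0 members and 0% of all genes called. No member had an unadjusted p under 0.05, where 1.26% of all genes did. The smallest p-values were those of Ndufb6 (-0.56 ± 0.28), a small accessory subunit of complex I, Cox7a1 (-0.56 ± 0.28), the muscle isoform of subunit VIIa, and Cox7c (-0.65 ± 0.33), with an edgeR adjusted p of 0.999. Both ifetroban libraries were below both vehicle libraries for 53 of 82 nuclear members (64.6%, and 16.5% of all tested genes). One library set this size: without the one labelled WT vehicle 1 the nuclear median was -0.04, and without WT vehicle 2 it was -0.64. It was -0.06 with a term for the kind of library and -0.14 with length offsets. The interaction, which asks whether the drug effect differed between genotypes, called no member and 0% of all genes; no member and 1.38% of all genes had an unadjusted p under 0.05, and the median over nuclear members was 0.14, or -0.19 without the library labelled WT vehicle 1.

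Across single libraries, the nuclear members deviated together, and the sign of their median went with the length trend of the library. The 2 kinds of library are in part the groups, since both KO vehicle libraries had long transcripts low and both WT ifetroban libraries had them high. The median deviation of the 82 nuclear members from the mean of the group means was 0.45 (log2) in the library labelled WT vehicle 1, 0.15 and 0.17 in KO vehicle, and 0.24 in KO ifetroban 1. In the other 5 libraries it was -0.15 (WT vehicle 2), -0.20 and -0.20 (WT ifetroban), and -0.25 and -0.32 (KO ifetroban 2 and 3). All 82 nuclear members were above their mean in the library labelled WT vehicle 1 and none was in KO ifetroban 3, where 50.2% and 52.1% of all genes were.

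Other short genes did the same. Over 1614 tested genes of at most 1500 exonic bases that are not members, the medians in the 4 libraries with long transcripts low were 0.30, 0.23, 0.16 and 0.21, and in the other 5 they were -0.15, -0.20, -0.17, -0.21 and -0.17. The members exceeded them by 0.15 in the library labelled WT vehicle 1 and fell short by 0.15 in KO ifetroban 3 and by 0.09 in KO vehicle 1, and differed by at most 0.04 elsewhere. The 2 sets were not matched on length: 40 of the 82 members had at most 1500 bases, and the median was 994.5 bases over the other short genes. For 65 of 82 nuclear members (79.3%) the lowest of the 4 libraries with long transcripts low was above the highest of the other 5, an order that 12.4% of all tested genes had. The 17 without it included the long subunits Sdha, Ndufs1, Ndufv1, Uqcrc1, Uqcrc2, Atp5a1 and Atp5b. They also included genes with short annotated exons, such as Cox6b2 (1108 bases) and Sdhd (1231), while Atp5l (6443) and Ndufb2 (5628) had the order. These lengths count all annotated exons. The longest protein-coding transcript of Atp5l has only 544 bases, so it is not a long messenger, and that of Ndufb2 has 4371. These 2 kinds of library were told apart by the length trend over all genes, not by a label.

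**Figure D3:**
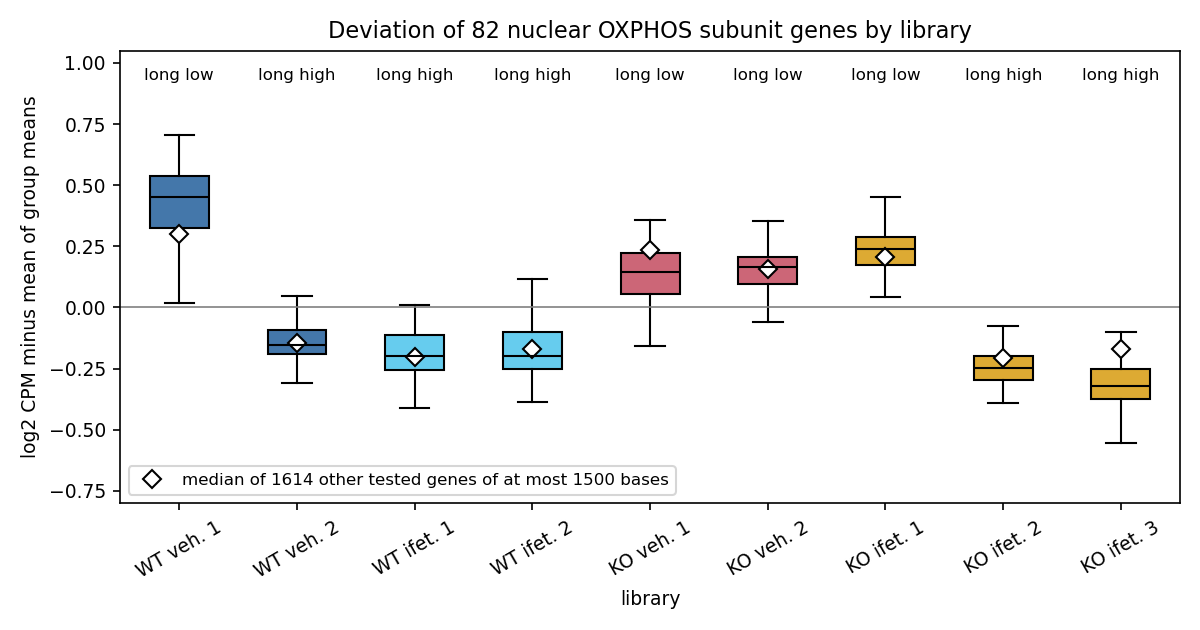
Deviation in log2 CPM (y axis) of the 82 tested nuclear members from the mean of the group means, by library (x axis); boxes span the quartiles with a line at the median, whiskers reach at most 1.5 times the box, and diamonds mark the median of 1614 other short genes. Boxes and diamonds lie above 0 in the 4 libraries marked long low and below 0 in the 5 marked long high.

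Within each kind of library the knockout comparison looked different from the pooled one. Of the 5 libraries with long transcripts high, 3 were WT (vehicle 2, ifetroban 1 and 2) and 2 KO (ifetroban 2 and 3). There 50 of 82 nuclear members (61.0%) were lower in both KO than in all 3 WT libraries, beside 15.5% of all tested genes. Higher in both was 1 member (1.22%, and 16.6% of all tested genes). Of the 4 with long transcripts low, 1 was WT, the library labelled WT vehicle 1, and 3 were KO (vehicle 1 and 2, ifetroban 1). In the WT one, 78 of 82 members were higher than in the 3 KO libraries (95.1%, and 31.5% of all tested genes). Treatments were thus not matched between genotypes within either kind, and the part of treatment in these orders was not tested. In both kinds, 50 members were lower in KO (61.0%, against 8.63% of all tested genes), and none was higher within both, where 9.28% of all tested genes were. These were the same 50 as where long transcripts were high, so the comparison with the library labelled WT vehicle 1 removed no member. Nuclear members deviated together by library, so the 50 are not separate observations. By complex, the 50 were 26 of 37 members of complex I, 4 of 4 of complex II, 4 of 8 of complex III, 6 of 16 of complex IV and 10 of 17 of complex V. The summed cardiomyocyte markers were likewise lower in KO within each kind, at 61872 and 66162 CPM against 70853 to 73884 CPM where long transcripts were high, and at 53332 to 61491 CPM against 68800 CPM where they were low. Among the single markers, Myh6, Ttn, Myl2, Myl3, Tnni3 and Pln had this order in both kinds, and Actc1, Tnnt2, Mybpc3 and Ryr2 did not.

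Uqcrc1, a core protein of complex III, shows the pattern. Among libraries with long transcripts high it was at 1325, 1259 and 1285 CPM in WT and 1154 and 1169 CPM in KO, and among the others at 1482 CPM in WT and 1349, 1278 and 1378 CPM in KO. Pooled, its WT and KO ranges overlap. Sdhb, the iron-sulfur subunit of complex II, was at 669, 663 and 670 CPM in WT and 601 and 571 CPM in KO of the first kind, and at 900 CPM in WT and 749, 788 and 787 CPM in KO of the second. Cox5b and Cox6b1, small subunits of complex IV, were among the 32 members without this order; Cox6b1 was at 483, 453 and 468 CPM in WT and 474 and 451 CPM in KO of the first kind.

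A fit with a term for the kind of library put the nuclear median at -0.29 under vehicle and -0.19 averaged over treatments. In that fit 49 of 95 members had an unadjusted p under 0.05 and were lower under vehicle (51.6%, and 4.74% of all genes), and 48 were in the averaged comparison (50.5%, and 4.95% of all genes), but none passed the adjusted threshold. A fit with offsets that remove each library's length trend gene by gene gave smaller values, with a nuclear median of -0.12 under vehicle and -0.07 averaged. There 4 members (4.21%, and 5.45% of all genes) and 10 members (10.5%, and 7.48% of all genes) were lower at an unadjusted p under 0.05. With neither, the nuclear median was -0.04 under vehicle and 0.03 averaged, with 50 of 82 members positive in the averaged comparison. Whether nuclear members were lower in KO, and how far, thus depended on how the length trend was treated. In the fit with a term for the kind of library, 1 WT library stood for WT among those with long transcripts low. It was the one whose Sgcd level lay inside the KO range.

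Several subunits have a heart or muscle isoform and a ubiquitous one, and the share of each pair is a ratio within a library. Cox6a2, the muscle isoform, made up 93.8%, 94.1%, 94.5% and 94.5% of Cox6a1 plus Cox6a2 per kb in the WT libraries, and 92.4%, 93.4%, 93.0%, 93.5% and 93.1% in the KO libraries. All KO libraries were below all WT libraries, by a small margin between 93.5% and 93.8%. Cox6a1 itself was at 93.4, 57.4, 53.5 and 54.4 CPM in WT and at 102, 85.3, 93.3, 61.4 and 59.3 CPM in KO, so that it was higher in KO within each kind of library only in part: 61.4 and 59.3 against 53.5 to 57.4 CPM where long transcripts were high, but 85.3 to 102 around 93.4 CPM where they were low. Its averaged log2 fold change was 0.36 ± 0.19, with an edgeR adjusted p of 0.366.

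Cox8b, the muscle isoform of subunit VIII, was 86.6%, 87.5%, 87.1% and 86.7% of the pair with Cox8a in WT and 86.2%, 84.8%, 86.6%, 86.1% and 85.4% in KO libraries, again with all KO below all WT, though the highest KO and the lowest WT share both round to 86.6%. The shares of Cox7a1 over Cox7a2 (75.9% to 78.5%), of Ndufa4 over Ndufa4l2 (95.4% to 97.0%) and of Cox4i1 over Cox4i2 (98.7% to 99.2%) overlapped between genotypes. How often ratios of other tested genes separate the genotypes in this way was not computed, so the orders of the Cox6a and Cox8 shares have no background to be read against. The 3 genes for the c subunit of ATP synthase ranked Atp5g3, Atp5g1, Atp5g2 per kb in every library, with Atp5g3 at 75.2% to 77.0% of its sum with Atp5g1.

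**Figure D4:**
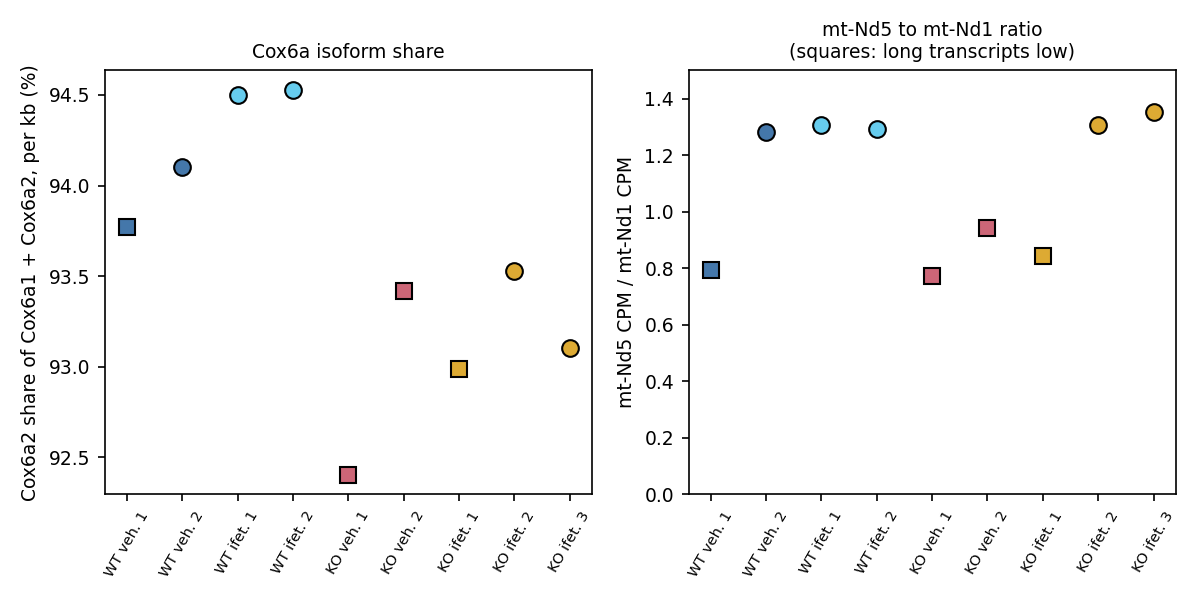
Left, the share of Cox6a2 in the sum of Cox6a1 and Cox6a2 per kb (y axis in percent, not from 0) and right, the ratio of mt-Nd5 to mt-Nd1 in CPM (y axis from 0), by library (x axis, coloured by group; squares mark libraries with long transcripts low). The Cox6a2 share is 93.8% or more in WT and 93.5% or less in KO libraries, and the ratio is 0.94 or less in all squares and 1.28 or more in all circles.

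The 13 mitochondrial messengers are cut from long precursors read off both strands of the mitochondrial chromosome, with mt-Nd6 alone among them encoded on the light strand. Their counts fell into 2 sets, which were told apart after the counts were seen. One set of 7 genes (mt-Nd1, mt-Nd2, mt-Nd4, mt-Nd5, mt-Nd6, mt-Cytb and mt-Co1) had 471 to 93118 CPM, and the other 6 (mt-Nd3, mt-Nd4l, mt-Co2, mt-Co3, mt-Atp6 and mt-Atp8) had 1.28 to 46.7 CPM.

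Of the latter, 5 share nearly all of their sequence with a nuclear copy. Of all stretches of 50 bases, 100% in mt-Co2, 99.9% in mt-Co3, 99.5% in mt-Atp6, 98.8% in mt-Nd4l and 98.0% in mt-Nd3 occur unchanged in another annotated gene, in each case one of a row of pseudogenes on chromosome 1. The tables have the layout of STAR's gene counts, in which reads that align to several places are not counted. Over their compared lengths mt-Co2 and Gm28661 (681 bases), mt-Co3 and Gm28437 (783), mt-Atp6 and Gm10925 (678), and mt-Nd4l and Gm10222 (294) had no difference. mt-Nd3 and Gm28438 had 1 difference in 345 bases, T3C, counted from 1 at the 5′ end of the mitochondrial gene. The first bases of mt-Co2 (chrM:7013-7072, plus strand) and of its copy (chr1:24615506-24615565, minus strand), and of mt-Nd3 (chrM:9459-9490, plus strand) and its copy (chr1:24613088-24613119, minus strand), show what a read there could be told apart by, with the only differing base in capitals. All are from the GENCODE transcripts of GRCm38.
mt-Co2: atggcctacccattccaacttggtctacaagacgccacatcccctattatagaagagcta
Gm28661: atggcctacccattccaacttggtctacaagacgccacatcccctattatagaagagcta
mt-Nd3: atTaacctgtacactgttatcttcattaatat
Gm28438: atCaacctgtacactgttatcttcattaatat

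The first pair is the same in every letter and the second differs in 1. The sixth, mt-Atp8, shares no stretch of 50 bases with another gene but overlaps mt-Atp6 by 43 of its 204 bases. Of the 7 genes with high counts, mt-Nd4 shared 62.2% and mt-Co1 51.1% of such stretches with nuclear copies, and mt-Nd1, mt-Nd6 and mt-Cytb none. For the 5 genes with near-complete copies the counted reads are therefore no measure of the transcript's level against other genes, and why mt-Atp8 had few reads was not tested.

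**Figure D5:**
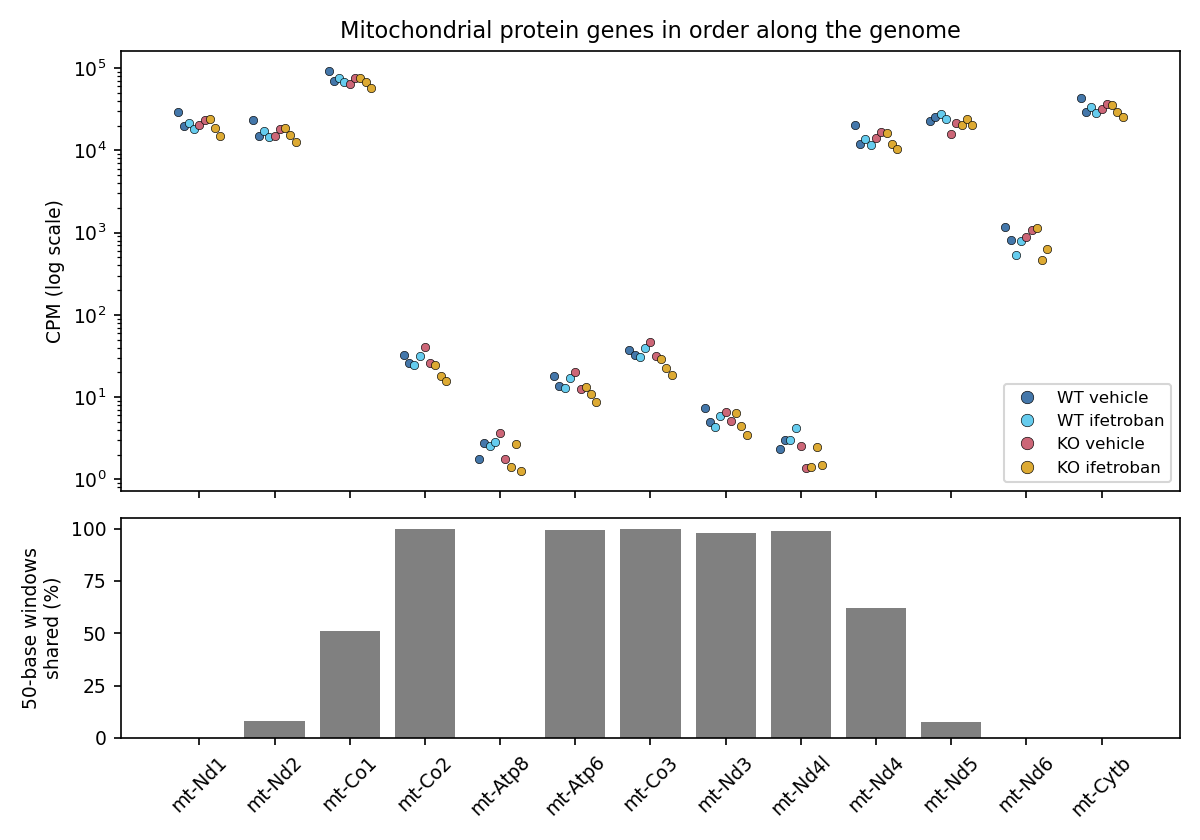
Upper panel, CPM on a log scale (y axis) of the 13 mitochondrial protein genes in each library, coloured by group and ordered along the mitochondrial chromosome (x axis); lower panel, the percentage of 50-base stretches of each gene that occur in another annotated gene. The 5 genes with bars near 100% and mt-Atp8 lie below 50 CPM, and the other 7 lie above 400 CPM.

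The members with the smallest p in the drug comparison within KO came from the set with low counts. mt-Co2 was at 41.2 and 25.8 CPM in KO vehicle and at 24.5, 18.1 and 15.9 CPM in KO ifetroban, and at 32.8, 25.8, 24.7 and 31.5 CPM in the WT libraries. The KO groups did not overlap, though KO vehicle 2 and KO ifetroban 1 were close. The log2 fold change was -0.78 ± 0.25, with an edgeR adjusted p of 0.688. mt-Co3, which encodes a core subunit of complex IV, was at 46.7 and 31.6 CPM in KO vehicle and 29.2, 22.9 and 18.8 CPM in KO ifetroban (log2 fold change -0.73 ± 0.23, edgeR adjusted p 0.688).

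Over the 6 genes with low counts the median of this comparison was -0.57, all 6 negative, and over the 7 with high counts it was -0.16, 6 of 7 negative. The 2 sets also differed in the interaction, at -0.63 (6 of 6 negative) and 0.12 (7 of 7 positive), and in KO minus WT under ifetroban, at -0.54 and -0.04. A median over all 13 mitochondrial genes thus mixed values that went apart. In KO minus WT under vehicle, the 7 genes with high counts were all negative, with a median of -0.16, and the 6 others were 4 positive and 2 negative, with a median of 0.10.

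Of the genes with high counts, mt-Nd5, the longest, followed another order than the rest. It was at 22984, 25288, 27801 and 23817 CPM in WT and at 15791, 21823, 20501, 24344 and 20499 CPM in KO libraries, which overlap. mt-Nd1, near the start of the same precursor strand, was at 29017, 19719, 21307 and 18456 CPM in WT and 20481, 23154, 24324, 18632 and 15153 CPM in KO libraries. The ratio of mt-Nd5 to mt-Nd1 was 0.79, 0.77, 0.94 and 0.84 in the libraries with long transcripts low (WT vehicle 1 by label, KO vehicle 1 and 2, KO ifetroban 1) and 1.28 to 1.35 in the other 5, without overlap, and with both genotypes in each kind. The ratio of the mitochondrial ribosomal RNAs mt-Rnr1 and mt-Rnr2, read from the same strand, was 0.47 to 0.50 in the first 4 and 0.36 to 0.38 in the other 5. mt-Nd6, from the other strand, was at 1165, 881, 1076 and 1125 CPM in the first 4 and 810, 532, 803, 471 and 625 CPM in the other 5. It and mt-Nd4 were the only mitochondrial genes whose values did not overlap between the 2 kinds of library (2 of 13, 15.4%), which is near the 12.4% of all tested genes.

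Nuclear subunit genes are known targets of the transcription factors NRF1, GABP (an ETS factor) and YY1. Promoters of 66 of the 84 nuclear members were matched by symbol in a RefSeq table of GRCm38.p6, from 250 bases before to 50 after the start. The NRF1 motif GCGCNTGCG, searched on both strands, was in 23 of 66 (34.8%), and in 14.2% of the 11079 tested genes with a promoter. YY1's AANATGGCG was in 10 (15.2%, and 5.49% of tested genes), and the ETS motif CCGGAAGT in 5 (7.58%, and 8.48%). The promoters of 2 genes with NRF1 matches are shown up to the start, that of Sdha (chr13:74350241-74350490, minus strand), the member with the smallest p for genotype, and that of Cox6a1 (chr5:115348959-115349208, minus strand), the isoform whose share was higher in KO libraries. Capitals mark the motif on either strand.
Sdha: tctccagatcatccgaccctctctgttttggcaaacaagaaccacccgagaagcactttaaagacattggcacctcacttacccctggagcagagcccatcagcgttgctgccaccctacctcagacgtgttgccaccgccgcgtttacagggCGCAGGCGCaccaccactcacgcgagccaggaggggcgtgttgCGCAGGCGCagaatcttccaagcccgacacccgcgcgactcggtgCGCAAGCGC
Cox6a1: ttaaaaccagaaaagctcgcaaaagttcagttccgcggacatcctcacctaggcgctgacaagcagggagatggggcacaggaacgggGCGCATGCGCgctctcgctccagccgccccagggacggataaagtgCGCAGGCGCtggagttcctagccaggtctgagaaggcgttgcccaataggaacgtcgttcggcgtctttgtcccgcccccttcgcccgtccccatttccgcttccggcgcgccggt

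Sdha and Cox6a1 each hold 3 matches, of which 2 overlap in Cox6a1. A match describes these letters and is not a measured binding site.

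Among 13 transcriptional regulators of the pathway, 9 were negative and 4 positive in KO minus WT under vehicle (median -0.39), and none was called. The smallest p-values were those of Ppargc1a, the coactivator PGC-1 alpha (-0.93 ± 0.32, edgeR adjusted p 0.314), Esrrg, an estrogen-related receptor (-0.90 ± 0.32, 0.333), Perm1, a muscle regulator of this pathway (-0.65 ± 0.26, 0.368), and Ppara, the receptor that drives fatty acid oxidation genes (-1.33 ± 0.55, 0.377). Pprc1, a relative of PGC-1 alpha, was on the other side at 0.84 ± 0.42 (0.442). That rise came from KO vehicle 1, at 6.90 CPM per kb. KO vehicle 2 was at 2.31 CPM per kb, below the WT vehicle libraries (2.57 and 2.58). Ppargc1a was at 5.58 and 12.43 CPM per kb in KO vehicle 1 and 2, and at 16.76 and 17.63 in WT vehicle. Esrrg was at 3.16 and 6.31 CPM per kb in KO vehicle 1 and 2, and at 7.88 and 9.80 in WT vehicle. Both were thus lower in each KO vehicle library, but mostly in KO vehicle 1. In ifetroban minus vehicle within KO, Ppargc1a, Esrrg, Perm1 and Ppara were at 0.69 ± 0.29, 0.75 ± 0.30, 0.33 ± 0.24 and 1.36 ± 0.52, with edgeR adjusted p-values of 0.688 or more. Both comparisons use the KO vehicle libraries, so their opposite signs are not independent. Levels of these genes also went with the kind of library: Ppara was at 9.17 and 21.8 CPM in KO vehicle and 18.1 CPM in KO ifetroban 1, the KO libraries with long transcripts low, and at 47.4 and 54.3 CPM in KO ifetroban 2 and 3. The part of this in the drug comparison was not tested for these genes.

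Of 45 assembly factors tested, which build the complexes without being part of them, 31 were negative under vehicle (median -0.07) and none was called in any of the 6 comparisons. Coa7, for complex IV, had the smallest p there (-0.41 ± 0.17, edgeR adjusted p 0.375). Of 17 genes for the upkeep and expression of mitochondrial DNA, 13 were negative under vehicle (median -0.23), with Lrpprc, which stabilizes mitochondrial messengers, at -0.45 ± 0.20 (0.397). Among 8 tested electron carriers and further subunits, Atpif1, the inhibitor of ATP synthase, was at 0.59 ± 0.24 (0.368) and Etfdh, which feeds electrons from fatty acid oxidation into the chain, at -0.38 ± 0.16 (0.380). No list had a called gene in any comparison.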

How the data were processed

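The members and gene lists were chosen with earlier results of these data known. Whole-number counts of reads for every gene were deposited, not normalized. Reads were processed with STAR 2.5.2b and HTSeq on build GRCm38 (per the submitters' processing notes), and the annotation release is not given in the sources used here. The reverse-strand column was used, which held 14.5 times the counts of the forward one. Rows naming no gene held 26.6% to 31.9% of reads and were left out, multimapping reads (12.4% to 17.0%) among them. Symbols and exonic lengths came from GENCODE M21, which held 49326 of the 49671 identifiers.

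Genes were tested with edgeR 4.0.16 (quasi-likelihood F test, TMM, filterByExpr, 1 coefficient per group, R 4.3.3), two-sided, with Benjamini-Hochberg adjustment over 15261 genes and a threshold of 0.05. Fold changes carry a prior count of 0.125, and SE was the absolute fold change over the root of F. CPM used TMM library sizes. The test was run on simulated counts for 15261 genes (KO vehicle against WT vehicle): of 100 genes changed 2-fold 22% were called, and of 100 changed 4-fold 71%. Deviations used a prior count of 2. Replicates differed beyond counting noise, so each counted once. The named genes were, per comparison, the 3 members with the smallest p in each direction, the mitochondrial genes, catalytic and core subunits, isoform pairs and the extremes of level per kb; further members were named after their values were seen (Uqcrc1, Sdhb, Cox6b1). Alternatives were DESeq2 1.42.0, other scalings, filters, strand, length terms, a replicate block and leaving out libraries.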

Additional observations from a re-analysis of the deposited data

How the results depend on the processing

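The number of members called stayed at 0 in 116 of 118 refits over the 6 comparisons. With no filter on low counts, 1 member, mt-Co2 (log2 fold change -0.75, adjusted p 0.0368 by edgeR), was called in ifetroban minus vehicle within KO, where 428 genes were called in all. Leaving out 1 library at a time gave 0 to 1 members called in the averaged genotype comparison, the 1 being Ndufs1 (-0.39, adjusted p 0.0486 by edgeR) without KO vehicle 2, where 2098 genes were called in all against 82 with every library. Sdha kept its sign in each of 19 refits of the averaged comparison (-0.38 to -0.26, adjusted p 0.0599 to 0.568), as did Ndufs1 (-0.39 to -0.16, 0.0486 to 0.684) and Cox6a1 (0.09 to 0.54, 0.151 to 0.754). Of the medians, 9 of 118 for nuclear and 13 of 124 for mitochondrial members moved by more than the replicate SD (0.27 and 0.23); the nuclear ones involved WT vehicle libraries or the length term. With that term the nuclear median of ifetroban minus vehicle was 0.11 in KO and -0.06 in WT, and with length offsets -0.06 and -0.14; the cause was not tested. Same-numbered replicates correlated at 0.001 to 0.478 in their deviations and share only a number. With the replicate block, 0 members were called in each comparison, and the nuclear median was -0.02 for KO minus WT under vehicle. Low counts limit 6 mitochondrial genes, 5 of them with near-complete nuclear copies.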
